A study of Mus musculus with 8 samples.

Results

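The mitochondrial calcium uniporter and VDAC genes were examined in heart RNA of TAZG197V and wild-type (WT) mice. They were taken as a named list of 9 genes out of the 55471 gene rows of the count tables: *Mcu*, *Mcur1*, *Micu2*, *Micu3*, *Smdt1* and *Slc8b1* of the inner membrane, and *Vdac1*, *Vdac2* and *Vdac3* of the outer membrane. All 9 passed the filter on low counts, as did 15084 genes in all. TAZG197V mice were made by CRISPR/Cas9 and bear a point mutation, known from patients, in *Taz*, the gene of the cardiolipin-remodelling enzyme Tafazzin of mitochondria. The series held 4 libraries from WT hearts and 4 from TAZG197V hearts, each made from a small piece of tissue. Both groups were untreated. The line was edited in C57BL/6N zygotes and bred to C57BL6/J, so the mutation was present in all cell types and not in cardiomyocytes alone, and the breeding of the WT mice is not described separately. *Taz* is X-linked. The study states that hemizygous males were used, while its breeding methods, like those in the labels, speak of homozygous offspring, and the labels give no sex for the libraries. The hearts used for RNA sequencing came from mice of 14 weeks of age, a figure the labels do not give. The labels do not state that the libraries of a group came from separate mice, so the p-values measure the spread between these libraries.

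VDAC proteins form the main pores of the outer mitochondrial membrane and let ions and metabolites, calcium included, reach the space between the membranes. From there calcium enters the matrix through the uniporter, in which MCU forms the pore, the small protein EMRE (encoded by *Smdt1*) links the pore to its regulators, and MICU proteins gate the channel according to calcium outside the inner membrane. In the heart, matrix calcium stimulates dehydrogenases that feed the respiratory chain, and a sodium-calcium exchanger encoded by *Slc8b1* (NCLX) carries calcium out again.

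The genes lie apart in the genome, and their positions are given on build mm10 from GENCODE M21. *Mcu* is on chromosome 10 (59446984 to 59616692, minus strand), *Mcur1* on chromosome 13 (43538393 to 43560191, minus strand) and *Smdt1* on chromosome 15 (82338959 to 82349091, plus strand). *Micu2* (57916261 to 57999262, minus strand) and *Vdac2* (21825238 to 21845879, plus strand) are both on chromosome 14. *Micu3* (40307458 to 40386308, plus strand) and *Vdac3* (22577075 to 22593813, minus strand) are both on chromosome 8. *Slc8b1* is on chromosome 5 (120511168 to 120534024, plus strand) and *Vdac1* on chromosome 11 (52360860 to 52389397, plus strand). All 9 are annotated as protein-coding, and counts cover their exons.

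Promoter sequences from RefSeq on GRCm38.p6, which span 250 bases before and 50 bases after a start site, were matched for 5 of the 9 genes: *Mcu*, *Mcur1*, *Micu2*, *Smdt1* and *Vdac1*. The table used here had no entry for *Micu3*, *Slc8b1*, *Vdac2* or *Vdac3*. For *Smdt1* the window, 82345796 to 82346095, lies inside the span given above from GENCODE M21, 82338959 to 82349091. It is not at the start of that span. The 3 windows below belong to genes of the uniporter complex, of which *Mcu* was called lower, *Micu2* was called higher and *Smdt1* was not called. They are printed 5′ to 3′ on the gene's strand, with capitals for motif matches on either strand.
Mcu, chr10:59616643-59616942, minus strand: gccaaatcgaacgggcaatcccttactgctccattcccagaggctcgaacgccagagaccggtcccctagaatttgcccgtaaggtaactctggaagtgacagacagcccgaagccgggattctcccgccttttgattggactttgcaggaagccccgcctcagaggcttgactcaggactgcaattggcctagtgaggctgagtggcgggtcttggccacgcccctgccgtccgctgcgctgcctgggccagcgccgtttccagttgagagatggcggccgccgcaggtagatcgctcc
Micu2, chr14:57999213-57999512, minus strand: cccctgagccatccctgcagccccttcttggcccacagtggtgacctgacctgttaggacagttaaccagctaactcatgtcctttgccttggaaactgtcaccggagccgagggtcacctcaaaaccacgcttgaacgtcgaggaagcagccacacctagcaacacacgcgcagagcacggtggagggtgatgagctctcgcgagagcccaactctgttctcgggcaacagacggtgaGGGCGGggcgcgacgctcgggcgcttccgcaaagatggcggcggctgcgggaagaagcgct
Smdt1, chr15:82345796-82346095, plus strand: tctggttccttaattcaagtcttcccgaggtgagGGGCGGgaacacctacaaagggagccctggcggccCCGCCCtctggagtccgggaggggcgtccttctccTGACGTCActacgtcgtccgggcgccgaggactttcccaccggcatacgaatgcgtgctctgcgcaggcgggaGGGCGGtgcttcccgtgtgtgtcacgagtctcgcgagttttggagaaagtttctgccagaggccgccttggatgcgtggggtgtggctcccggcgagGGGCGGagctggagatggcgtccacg
The motifs searched were the full CREB site (TGACGTCA), the ATF4 composite element (TGATGNAA), the NRF1 site, the ERR element (TNAAGGTCA) and the Sp1 box (GGGCGG). The *Smdt1* window held 1 full CREB site, which 1.79% of the 32851 promoters of that length also hold, and 4 Sp1 boxes, a motif found in 35.7% of them. The *Micu2* and *Mcur1* windows each held 1 Sp1 box, and the *Mcu* window held none of the 5 motifs. Of the *Vdac1* windows, 1 held no match and 1 held 3 Sp1 boxes. ATF4 elements, NRF1 sites and ERR elements, found in 3.97%, 4.6% and 1.28% of promoters, were matched in none of these windows. These matches describe letters in the windows and say nothing of binding.

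Total counts were between 23055689 and 36301031 per library. Levels are given as CPM, counts relative to library size after TMM scaling between libraries, as mean ± SD over 4 libraries per genotype. The edited gene *Taz* was lower in every TAZG197V library (44.3 to 50.4 CPM) than in any WT library (58.7 to 63.8 CPM), with a log2 fold change of -0.37 (SE 0.0553, edgeR quasi-likelihood test, adjusted p = 0.00125). Cardiomyocyte markers were abundant in all libraries, as the heart label implies, but their summed level was lower in TAZG197V (38450 to 42930 CPM) than in WT (47440 to 53900 CPM), and 3 of 6 were called lower. Summed fibroblast markers were also lower in TAZG197V (750.6 to 1082 against 1087 to 1721 CPM, 3 of 5 called lower), while summed endothelial markers (482.3 to 641.6 against 604 to 860.2 CPM, 2 of 5 called lower) and smooth muscle markers (217.6 to 411.3 against 121.6 to 243.9 CPM, 1 of 3 called higher and 2 lower) overlapped. Macrophage and adipocyte sums overlapped too (126.8 to 197.4 against 132.9 to 179.8 CPM, and 404.4 to 515.1 against 419.2 to 586.9 CPM). Skeletal muscle markers summed to at most 2.41 CPM and were lower in TAZG197V (0.807 to 1.19 against 1.48 to 2.41 CPM), with 0 called. Individual libraries stood apart. WT 4 held 55070 CPM of red cell markers where the others held 227.3 to 1065, WT 2 held 1057 CPM of atrial markers where the others held 3.80 to 130, and brain markers summed to 213.6 CPM in WT 4 and 361.2 CPM in TAZG197V 4 against 47.1 to 93.2 CPM elsewhere. All 6 red cell markers and 2 of 3 tested atrial markers were called lower in TAZG197V. Of 6 tested brain markers 1 was called higher and 2 lower. Of 2 tested adipocyte markers 1 was called lower, and 0 of 5 macrophage markers were called. No marker was at 0 in all libraries. In tissue pieces, fewer cells of a type and less RNA per cell cannot be told apart, and the part of cell composition in the differences given next was not tested.

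A gene was called changed when its adjusted p was under 0.05, its log2 fold change exceeded 0.202 in size and its mean scaled count was at least 50. Over all genes, 33.6% of the tested genes were called, 18.5% higher and 15.1% lower in TAZG197V, and the median log2 fold change of all genes was -0.01. Against this background 4 of the 9 genes, or 44.4%, were called. *Vdac3*, *Micu2* and *Vdac2* were higher and *Mcu* was lower. The adjusted p alone was under 0.05 for 5 of the 9, *Smdt1* being the fifth, and for 38.2% of all genes tested. The median log2 fold change of the 9 genes was 0.15. In the same 4 genes no TAZG197V library overlapped a WT library, which held for 33.2% of all genes tested. The genes therefore did not move in a common direction, and with 9 genes a count of 4 called is no result about the list against this background. The differences between its members are given next.

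**Figure D1:**
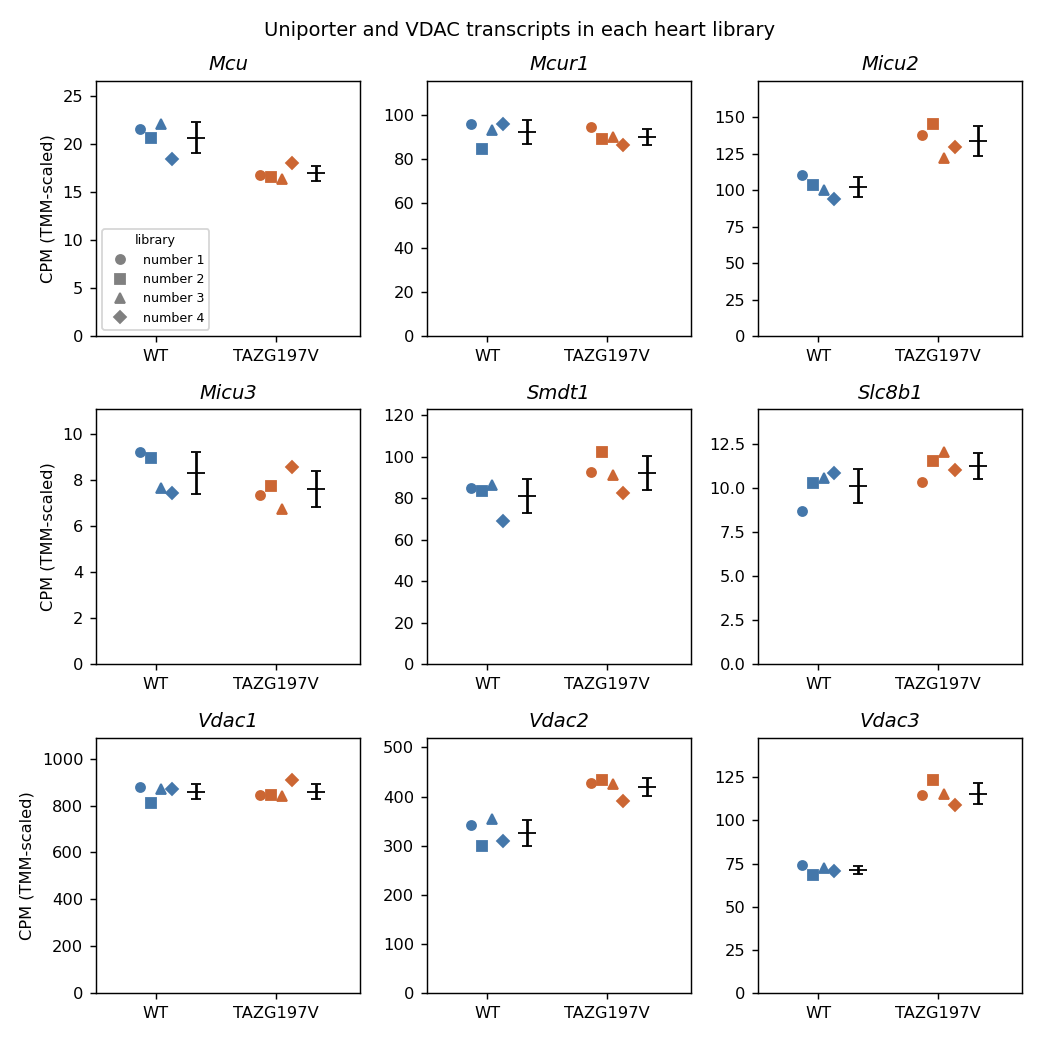
Level of each of the 9 genes in each heart library, in TMM-scaled CPM on axes that start at 0. Blue symbols are WT and orange symbols TAZG197V libraries, the symbol shape gives the library number, and black bars show mean ± SD (n = 4). The genotypes do not overlap for *Mcu*, *Micu2*, *Vdac2* and *Vdac3*, and *Vdac1* has the same mean level in both.

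*Mcu*, the pore of the uniporter, measured 21.5, 20.6, 22.1 and 18.4 CPM in WT 1 to 4 and 16.8, 16.5, 16.3 and 18.04 CPM in TAZG197V 1 to 4. All TAZG197V libraries were below all WT libraries, but only 0.396 CPM separated the lowest WT library, WT 4, from the highest TAZG197V library, TAZG197V 4. Its mean was 20.6 ± 1.6 CPM in WT against 16.9 ± 0.78 CPM in TAZG197V, and the level fell by 17.6% in the fit (log2 fold change -0.28, SE 0.0798, adjusted p = 0.0249). The call was lost when any of WT 1, WT 3, TAZG197V 1, TAZG197V 2 or TAZG197V 3 was left out, with adjusted p up to 0.0885 and log2 fold changes between -0.36 and -0.23 over the 8 fits that each left out a library. Without both number 4 libraries the fall was larger (log2 fold change -0.37, adjusted p = 0.00405). Both held the most brain marker counts of their genotype, and WT 4 also held the most red cell marker counts. The part of either in the value of *Mcu* was not tested.

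*Micu2* encodes a gatekeeper of the uniporter. It measured 110.7, 103.5, 100.3 and 93.9 CPM in WT 1 to 4 and 137.8, 145.8, 122.1 and 129.4 CPM in TAZG197V 1 to 4. Every TAZG197V library was above every WT library, with 11.4 CPM between the nearest of them. Its mean rose from 102.1 ± 7.00 to 133.8 ± 10.3 CPM (log2 fold change 0.40, SE 0.0733, adjusted p = 0.00352), and it was called in all 18 alternative fits. *Micu3*, a related regulator best known from nervous tissue, was the least abundant of the 9 genes per length, at 7.46 to 9.24 CPM in WT and 6.74 to 8.58 CPM in TAZG197V. The ranges overlapped, and the log2 fold change was -0.10 with a 95% interval from -0.34 to 0.15 (adjusted p = 0.498). The highest TAZG197V value of *Micu3* was in TAZG197V 4, the library with the most brain marker counts. The lowest WT value, 7.46 CPM, was in WT 4, the library with the next most. The part of brain transcripts in these values was not tested. The log2 difference of *Micu3* was -0.26 between the libraries of lane 7 and 0.01 between those of lane 8. Without both number 4 libraries the log2 fold change of *Micu3* was -0.24 and was again not called (adjusted p = 0.112). With 1 library left out it ranged from -0.23 to -0.01, nearest to 0 without WT 1 (-0.01), WT 2 (-0.03) or TAZG197V 3 (-0.04), and it was not called in any of these fits.

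*Smdt1* (EMRE) measured 85.1, 83.5, 86.6 and 69.1 CPM in WT 1 to 4 and 92.8, 102.3, 91.4 and 82.6 CPM in TAZG197V 1 to 4. Both number 4 libraries were the lowest of their genotype, and TAZG197V 4 lay below 3 WT libraries. The adjusted p was 0.0319 (log2 fold change 0.201, SE 0.0611), but the fold change was just under the threshold of 0.202 on the log2 scale, so *Smdt1* was not called. Its adjusted p stayed under 0.05 in 7 of 18 alternative fits, and it was called in 4 of them. The adjusted p rose above 0.05, up to 0.117, when any of WT 1, WT 4, TAZG197V 1, TAZG197V 2 or TAZG197V 4 was left out, and to 0.0739 without both number 4 libraries. *Smdt1* also shares 16.6% of its exon bases with *Pheta2* on the same strand, a gene with at most 28 counts in any library, and reads over those bases cannot be assigned to either gene from the counts.

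*Mcur1*, named as a regulator of the uniporter, ranged from 84.6 to 96.2 CPM in WT and from 86.4 to 94.8 CPM in TAZG197V. The TAZG197V range lay within that of WT, and the log2 fold change was -0.06 with a 95% interval from -0.18 to 0.06 (adjusted p = 0.414). With 1 library left out the value lay between -0.0873 and -0.0017, nearest to 0 without WT 4 or TAZG197V 4. *Slc8b1*, the exchanger that exports calcium from the matrix, ranged from 8.73 to 10.9 CPM in WT and from 10.4 to 12.1 CPM in TAZG197V. The fitted log2 fold change of 0.15 had a 95% interval from -0.09 to 0.38 (adjusted p = 0.288), so a change of either sign within that interval was not resolved with these libraries. With 1 library left out the value ranged from 0.07 to 0.20, the lowest being without WT 1.

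The outer membrane channels differed from each other. *Vdac1*, the most abundant isoform per length, measured 881.7, 811.3, 871.7 and 872.8 CPM in WT 1 to 4 and 845.4, 844.8, 842.8 and 907.7 CPM in TAZG197V 1 to 4. The values of the genotypes were interleaved, with means of 859.4 and 860.1 CPM. The log2 fold change was -0.01, and its 95% interval ran from -0.15 to 0.13 (adjusted p = 0.923).

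*Vdac2*, the isoform known for binding the apoptosis effector BAK, measured 342.1, 298.5, 354.0 and 309.8 CPM in WT 1 to 4 and 427.4, 432.7, 424.6 and 391.6 CPM in TAZG197V 1 to 4. The lowest TAZG197V library was 37.5 CPM above the highest WT library. The fitted rise was 1.27-fold (log2 fold change 0.35, SE 0.0602, adjusted p = 0.00277). *Vdac3*, the least abundant isoform per length, measured 74.0, 68.3, 72.2 and 70.7 CPM in WT 1 to 4 and 115.0, 123.2, 115.4 and 108.8 CPM in TAZG197V 1 to 4. The difference in means was 9.79 times the pooled SD, more than for any other of the 9 genes. The fitted rise was 1.61-fold (log2 fold change 0.69, SE 0.0521, adjusted p = 5e-05), and 85.0% of all genes tested had a smaller absolute change. Both genes were called in all 18 alternative fits.

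Near-identical copies bear on the VDAC counts. Of all stretches of 50 bases, the read length, in the transcripts of *Vdac3*, 12.8% also occur in *Gm15970*, *Gm7591* or *Vdac3-ps1*, and these held at most 27 counts in a library. For *Vdac2* 4.06% occur in *Gm7832* (at most 64 counts), and for *Vdac1* 1.41% occur in *Gm15502* or *Gm16102* (at most 23 counts). *Vdac2* also shares 0.524% of its exon bases with the opposite-strand gene *Comtd1*, whose counts were 19 to 39 in WT and 65 to 157 in TAZG197V. The mean scaled count of *Vdac2* was 10901.

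**Figure D2:**
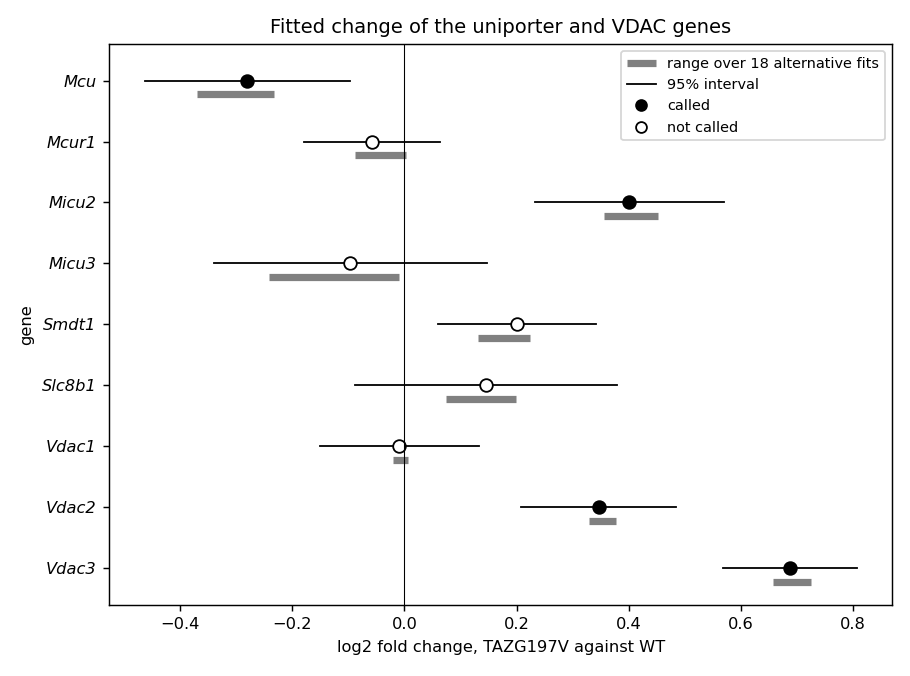
Fitted log2 fold change of each gene in TAZG197V against WT, from edgeR. Circles are the estimates, filled where the gene was called, thin lines are 95% intervals, and grey bars span the estimates from 18 alternative fits. *Vdac3* has the largest change at 0.69, *Mcu* is the called gene below 0, and the grey bar of *Micu3* reaches furthest from its estimate.

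Levels of different genes were compared per kilobase of exon. In WT the order was *Vdac1* (328 CPM per kb), *Vdac2* (68.4), *Smdt1* (54.8), *Micu2* (33.1), *Vdac3* (13.2), *Mcur1* (13.1), *Mcu* (2.98), *Slc8b1* (2.92) and *Micu3* (1.35 CPM per kb). Neighbours in this order did not overlap between libraries, except *Vdac3* with *Mcur1* and *Mcu* with *Slc8b1*. In TAZG197V both of these pairs were apart. *Vdac3* stood at 21.3 CPM per kb against 12.7 for *Mcur1*, and *Slc8b1*, at 3.25 CPM per kb, stood above *Mcu* at 2.44. The order depends on the length used. Per kilobase of the longest coding transcript, *Vdac3* (50.1 CPM per kb in WT) came before *Micu2* (43.9), and *Mcu* stayed above *Slc8b1* in both genotypes (7.19 against 3.49 in WT, 5.89 against 3.88 in TAZG197V).

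Ratios of counts within a library do not depend on the scaling between libraries, and 7 were compared between genotypes by an exact two-sided permutation test of the genotype labels (70 arrangements). The smallest p this design allows is 0.0286, and all 7 ratios reached it. Adjustment over the 7 leaves equal p-values as they are, at 0.0286. The genotypes did not overlap in any of the 7 ratios. For single genes the same held for 33.2% of all genes tested, and the share among other gene pairs was not computed. The ratios share genes, so they are not 7 independent results. With 1 library left out, p was 0.0571 for *Vdac2* to *Vdac1* and *Smdt1* to *Mcu* without any of WT 1 to 4, for *Slc8b1* to *Mcu* without any of TAZG197V 1 to 4 and for *Micu3* to *Micu2* without WT 1 or WT 2, and 0.0286 in the other cases.

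The *Vdac3* to *Vdac1* ratio was 0.0840, 0.0842, 0.0829 and 0.0810 in WT 1 to 4 and 0.136, 0.146, 0.137 and 0.120 in TAZG197V 1 to 4. This was a difference of 0.70 on the log2 scale, against an SD of 0.0253 among WT and 0.119 among TAZG197V libraries. The *Vdac2* to *Vdac1* ratio rose from a mean of 0.379 to 0.488 (log2 difference 0.36), and the *Vdac3* to *Vdac2* ratio from 0.219 to 0.276 (log2 difference 0.33). The mix of VDAC transcripts thus shifted towards the less abundant isoforms. Of the counts on the 3 genes, *Vdac1* made up 68.4% ± 1.08 in WT and 61.7% ± 1.89 in TAZG197V, *Vdac2* 25.9% ± 1.13 and 30.1% ± 1.50, and *Vdac3* 5.68% ± 0.0974 and 8.29% ± 0.439 (SD, n = 4). These shares are of counts and are not corrected for transcript length. Summed over the 3 genes, VDAC transcripts reached 1257 ± 56.5 CPM in WT against 1395 ± 11.6 CPM in TAZG197V, and the libraries of the genotypes did not overlap (1178 to 1298 against 1383 to 1408 CPM).

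Within the uniporter complex, *Micu2* counts exceeded *Mcu* counts by 5.15, 5.04, 4.54 and 5.09 times in WT 1 to 4 and by 8.22, 8.81, 7.49 and 7.17 times in TAZG197V 1 to 4. The log2 difference was 0.67. The *Smdt1* to *Mcu* ratio rose from a mean of 3.92 to 5.47 (log2 difference 0.47), and 4.57 in TAZG197V 4 was the lowest of its genotype. The *Slc8b1* to *Mcu* ratio rose from 0.495 to 0.668 (log2 difference 0.44), with the nearest libraries at 0.591 in WT 4 and 0.612 in TAZG197V 4. The *Micu3* to *Micu2* ratio fell by 0.52 on the log2 scale. Transcripts of the gatekeeper, of EMRE and of the exchanger were thus all higher relative to the pore transcript in TAZG197V hearts, and *Mcu* is the denominator in each of these 3 comparisons.

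**Figure D3:**
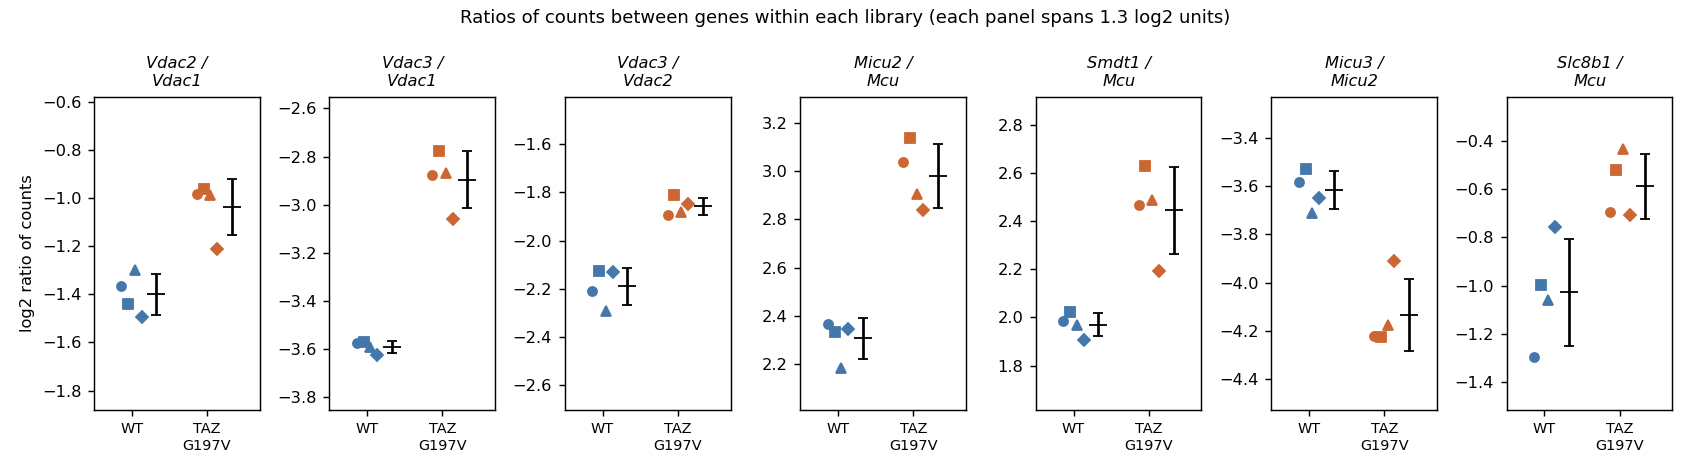
Log2 ratio of counts between pairs of genes within each library, with WT in blue, TAZG197V in orange, the symbol shape for the library number (circle 1, square 2, triangle 3, diamond 4) and black bars for mean ± SD (n = 4). The vertical axes have different offsets and the same span. The genotypes are apart in all 7 panels, and the diamond of TAZG197V 4 lies nearest to WT in 6 of them.

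File names place numbers 1 and 2 of each genotype on sequencing lane 7 and numbers 3 and 4 on lane 8. The log2 differences within lanes were -0.34 and -0.24 for *Mcu*, 0.40 and 0.37 for *Micu2*, 0.21 and 0.17 for *Smdt1*, 0.21 and 0.10 for *Slc8b1*, 0.43 and 0.30 for *Vdac2* and 0.74 and 0.65 for *Vdac3*, in lanes 7 and 8 respectively. All 6 genes kept their direction in both lanes. *Mcur1* (0.03 and -0.10), *Micu3* (-0.26 and 0.01) and *Vdac1*, with differences of at most 0.0039 in size, did not.

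Other genes of the pathway were taken from 5 lists, named by the rule of up to 2 called genes per direction with the largest change. Of 7 other genes of mitochondrial calcium transport, 1 was called higher and 0 lower, and their median log2 fold change was -0.17. *Ghitm*, which encodes an inner membrane protein of the TMBIM family, rose from 701.4 ± 30.4 to 2316 ± 130 CPM (log2 fold change 1.71, SE 0.0682, adjusted p = 1.79e-06), and the genotypes did not overlap. The 6 not called included *Mcub*, the pore paralogue, at 1.71 CPM in WT and 1.47 in TAZG197V.

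Of 6 genes for maturation and turnover of the uniporter and its neighbours, 2 were called higher and 2 lower (median log2 fold change 0.00). *Chchd4*, which encodes the MIA40 oxidoreductase of the intermembrane space, rose by a log2 fold change of 0.62 (adjusted p = 0.000324). *Afg3l2* and *Spg7* encode the subunits of the matrix-facing AAA protease, which degrades EMRE that is not assembled, and they moved in opposite directions, at 0.48 (adjusted p = 0.000545) and -0.24 (adjusted p = 0.0141). *Oma1*, a stress-activated protease of the inner membrane, fell by 0.24 (adjusted p = 0.0164).

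Of 17 genes for partners of VDAC and contacts with the endoplasmic reticulum, 7 were called higher and 6 lower (median log2 fold change 0.14). *Hspa9*, the chaperone that bridges VDAC1 and the inositol trisphosphate receptor, rose from 800.4 ± 49.6 to 2003 ± 107 CPM (log2 fold change 1.31, adjusted p = 6.32e-06). *Slc25a5*, an adenine nucleotide carrier of the inner membrane, rose from 89.5 ± 14.4 to 192.5 ± 17.2 CPM (log2 fold change 1.06, adjusted p = 3.62e-05). The receptors *Itpr3* and *Itpr2*, which release calcium from the endoplasmic reticulum, fell by 0.70 and 0.52 on the log2 scale (adjusted p = 0.000708 and 0.00767).

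Of 6 genes for outer membrane beta-barrel proteins and the machinery that inserts them, a list without the VDAC genes, 1 was called higher and 0 lower (median log2 fold change 0.06). It was *Mtx2*, a metaxin of the insertion machinery, at 96.8 ± 9.42 CPM in WT and 133.1 ± 10.4 CPM in TAZG197V (log2 fold change 0.45, adjusted p = 0.000968). Of 10 genes in a list of calcium-sensitive enzymes and carriers and their close relatives, 1 was called higher and 3 lower (median log2 fold change -0.09). *Pdp2* encodes a phosphatase that activates pyruvate dehydrogenase and, unlike its paralogue PDP1, is not stimulated by calcium. It fell by 1.32 on the log2 scale, from 57.9 ± 8.90 to 23.6 ± 2.74 CPM (adjusted p = 4.2e-05). *Idh3b*, a subunit of isocitrate dehydrogenase, fell by 0.31 (adjusted p = 0.014). *Pdhb*, a subunit of pyruvate dehydrogenase, rose by 0.26 (adjusted p = 0.0198). The lists were chosen with results of these libraries known, and a few genes not reported here were left out of them. Their counts are therefore incomplete. They are read only beside the 18.5% and 15.1% of all genes, which are a rough scale for them.

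**Figure D4:**
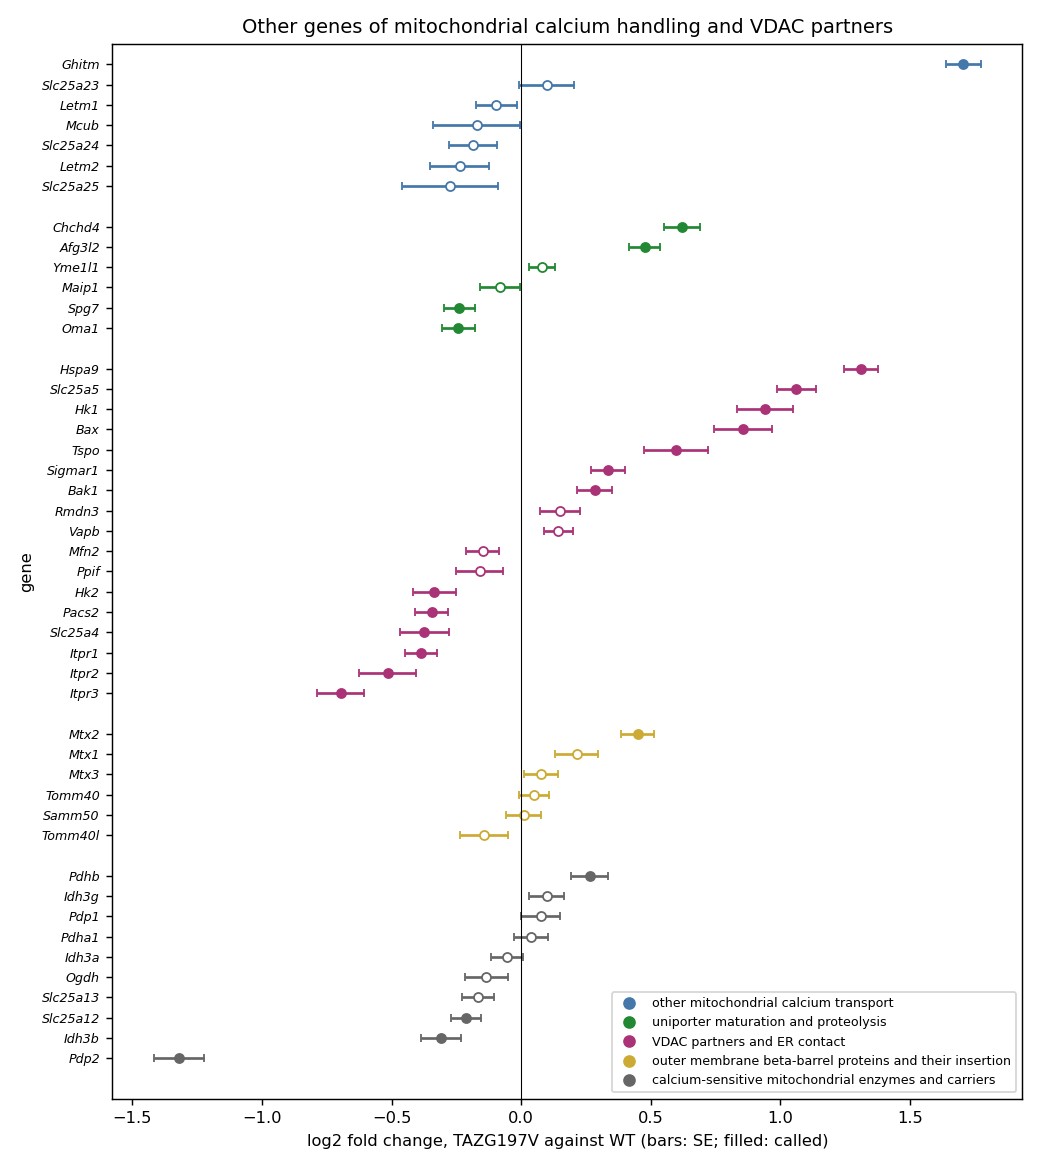
Fitted log2 fold change, TAZG197V against WT, of the other genes in 5 lists shown by colour. Circles are filled where the gene was called, and bars are the standard error. *Ghitm* (1.71), *Hspa9* (1.31) and *Slc25a5* (1.06) lie furthest to the right and *Pdp2* (-1.32) furthest to the left.

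Among 5061 other called genes with a symbol, the 3 whose centred log2 CPM was nearest to that of *Mcu* over the 8 libraries were *Ier3ip1*, *Dbi* and *Mmaa*, with root mean square differences of 0.0418, 0.0440 and 0.0446. The gene nearest to *Vdac3* was *Polr3c*, which encodes a subunit of RNA polymerase III, with a difference of 0.0298.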

How the data were processed

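RNA was sequenced in 4 WT and 4 TAZG197V heart libraries. Per the labels and the submitters' processing notes, the authors demultiplexed reads with bcl2fastq 2.20.0, checked them with FastQC 0.11.9, aligned them to mm10 with STAR 2.7.3a and counted exonic reads per gene with featureCounts of Subread 2.0.0. The deposited values are raw counts per Ensembl gene. Whether counting used strand, and how multi-mapping reads were treated, is not given in the sources used here. The 92 spike-in rows summed to 0 and were left out. Symbols came from GENCODE M21 (55144 of 55471 gene IDs).

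The fit used edgeR 4.0.16 under R 4.3.3. Low counts were removed by filterByExpr and libraries were TMM-scaled. The 2 surrogate variables came from svaseq (sva 3.50.0, seed 1, genotype protected), as the study's methods also correct for such variables. Genotype was tested by the two-sided quasi-likelihood F-test with Benjamini-Hochberg adjustment over 15084 genes, and the calling thresholds are those of the study. Ratios used counts plus 0.5 and no covariates. A call is named with its fitted log2 fold change, while CPM means are not corrected for surrogate variables. DESeq2 1.42.0, other scalings, filters, covariates and left-out libraries were the alternatives. The members and the gene and marker lists were chosen with earlier results of these data known. The text names the 9 genes, *Taz*, up to 2 called genes per direction from each list and those of the 3 genes nearest to *Mcu* and to *Vdac3* that are reported. A few genes that these rules would name are not reported here and were left out of the list counts. *Mcub* and the overlapping and copied genes are named besides, *Mcub* after its values were seen. No 2 libraries of a genotype agreed within sampling noise (lowest chi-square per gene 10.2). Totals were between 23055689 and 36301031 counts, and the spread between libraries sets the precision. This spread includes counting noise, which weighs more for genes with few counts. Among the 9 genes these are *Mcu*, *Slc8b1* and *Micu3*, with means of 517.8, 347 and 233.5 counts in TAZG197V.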

Additional observations from a re-analysis of the deposited data

Results flagged for a closer look

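A library was set apart from its group where its gap to the nearest other library, divided by the range of the 4, passed Dixon's 95% critical value. This held in 4 of 34 sets of 4 libraries, and chance flags about 1 in 20, or 1.7 sets. For *Vdac1*, WT 2 was low (811.3 against 871.7 to 881.7 CPM, gap over range 0.858) and TAZG197V 4 was high (907.7 against 842.8 to 845.4 CPM, gap over range 0.96). TAZG197V 4 was also low in the log2 ratio of *Vdac2* to *Vdac1* (-1.21 against -0.99 to -0.97, gap over range 0.904) and high in the log2 ratio of *Micu3* to *Micu2* (-3.91 against -4.23 to -4.18, gap over range 0.834). WT 2 held the most atrial marker counts and TAZG197V 4 the most brain marker counts, and the part of either in these values was not tested.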

How the results depend on the processing

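Each gene was refitted under 18 alternatives, and the called genes *Vdac2* (log2 fold change 0.33 to 0.38), *Vdac3* (0.66 to 0.72) and *Micu2* (0.36 to 0.45) were called in all of them. *Mcu* was called in 13 of 18, with -0.36 to -0.23 when 1 library was left out. *Smdt1* kept its direction in all 18, but its adjusted p was above 0.05 with no filter on low counts (log2 fold change 0.18), with DESeq2 (0.19), with no surrogate variables (0.19, adjusted p = 0.15), with lane (0.19, adjusted p = 0.122) or replicate number as a block (0.19, adjusted p = 0.0611) in place of the surrogate variables, and without both number 4 libraries (0.17), and leaving out 1 library gave 0.13 to 0.22. At a fold change of at least 1.5, 1849 genes were called in place of 5066, 999 higher and 850 lower, and of the 9 genes 1 was called higher and 0 lower. Leaving out 1 library gave 3673 to 5228 called genes (2124 to 2834 higher, 1549 to 2394 lower), and 3 to 4 of the 9 genes higher and 0 to 1 lower. *Mcur1*, *Micu3*, *Slc8b1* and *Vdac1* were called in 0 of 18.

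Of the ratios, without both number 4 libraries the log2 differences were 0.39 (*Vdac2* to *Vdac1*), 0.74 (*Vdac3* to *Vdac1*), 0.35 (*Vdac3* to *Vdac2*), 0.73 (*Micu2* to *Mcu*), 0.54 (*Smdt1* to *Mcu*), -0.60 (*Micu3* to *Micu2*) and 0.57 (*Slc8b1* to *Mcu*), each with exact p = 0.1, the smallest that 3 against 3 allows. With replicate number as a block they were 0.36, 0.70, 0.33, 0.67, 0.47, -0.52 and 0.44 in the same order, each with exact p = 0.125, the smallest that 4 pairs allow. Leaving out 1 library gave 0.33 to 0.42, 0.66 to 0.75, 0.30 to 0.35, 0.62 to 0.72, 0.41 to 0.56, -0.59 to -0.48 and 0.35 to 0.53.

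The labels do not say what a replicate number stands for, and file names show that numbers share a lane in pairs. Deviations from the genotype means correlated at 0.0436 to 0.416 between libraries of the same number, all positive, and at -0.464 to 0.317 between others. The ranges overlap and libraries of the same number also share a lane, so these values cannot decide whether the numbers are pairs. The main fit did not treat them as pairs, and the block was an alternative. The block was fitted without surrogate variables and gave 4272 called genes, against 4192 with neither.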
